A study of Mus musculus with 14 samples.

Results

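A set of 9 genes that have been reported as miR-29 targets in other tissues, and that encode neither matrix proteins nor enzymes of DNA methylation, were followed in the colon of mice that lack miR-29a and miR-29b-1. They were Mcl1, Hbp1, Cdk6, Ppm1d, Pik3r1, Cdc42, Hdac4, Bace1 and Ireb2, chosen by name. All 9 were found once among the 55889 genes counted without dextran sulfate sodium (DSS) and once among the 54721 genes counted after DSS. The question was whether their transcripts were more abundant where the microRNAs were missing. RNA was sequenced from 14 mice of the C57BL/6N strain, each a separate animal. The experiment without DSS held 4 WT and 4 MiR-29ab1-/- (KO) mice, with no treatment named. After 3 days of 3.5% DSS in the drinking water, which injures the colonic epithelium, there were 3 WT mice and 3 KO mice. The study states that it left a WT sample and a KO sample out of its analysis. From which experiment these came, and whether they are among the 14 mice, is not given in the sources used here. The KO is a germline deletion, so every cell type of the tissue lacks the Mir29a and Mir29b-1 hairpins, while Mir29b-2 and Mir29c, at another locus, are not part of the named deletion. By the study's methods the mice were littermates of 8 to 12 weeks. Mature miR-29 was not measured in these libraries.

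A microRNA guides the Argonaute complex to messenger RNAs by pairing of its seed, the bases near its 5′ end, mostly with sites in the 3′ untranslated region (UTR), and the bound transcript is translated less and decays sooner. Of the miR-29 family, miR-29a, miR-29b and miR-29c share a seed, so that the remaining locus can act on the same sites. The family is best known for lowering collagens and DNA methyltransferases, and the genes followed here take part in cell survival, cell cycle, signalling, transcription, proteolysis and iron balance.

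The mature sequences are shown because the seed sets which sites can pair with the deleted and with the remaining family members. They are from RefSeq (GRCm38.p6), 5′ to 3′, with the seed, bases 2 to 8, in capitals. miR-29a lies at chr6:31062673-31062694 on the minus strand. miR-29b is made from Mir29b-1 at chr6:31063025-31063047, minus strand, and with the same letters from Mir29b-2 at chr1:195037091-195037113, plus strand. miR-29c lies at chr1:195037600-195037621 on the plus strand.
miR-29a-3p: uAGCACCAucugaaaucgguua
miR-29b-3p: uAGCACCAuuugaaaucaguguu
miR-29c-3p: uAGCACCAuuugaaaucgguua

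Matches to this seed were searched in the longest annotated 3′ UTR of each gene, on the strand of the transcript (GENCODE vM21, GRCm38). The letters were TGGTGCTA for an 8mer, TGGTGCT for a 7mer-m8 and GGTGCTA for a 7mer-A1, with each position counted once, as its longest type. A 7mer or 8mer was found in 8 of the 9 genes, against 18.8% of the 12782 genes tested without DSS that have a 3′ UTR, and against 27.0% of those whose UTR is as long as those of the 9 genes (873 to 10217 bases). Mcl1 and Ireb2 hold 1 8mer each. Cdk6 holds 3 7mer-m8 and 2 7mer-A1, Hdac4 holds 2 7mer-m8, and Bace1 holds 1 of each 7mer. Pik3r1, Cdc42 and Ppm1d hold 1 7mer-m8 each. The longest 3′ UTR of Hbp1 (transcript Hbp1-201) holds no match, but that of Hbp1-202 holds an 8mer and a 7mer-m8. With all transcripts taken, all 9 genes hold a 7mer or 8mer, beside 19.9% of the tested genes of any UTR length. Of the 9, 3 genes, Mcl1, Hbp1 and Ireb2, hold an 8mer, which 3.34% of the tested genes of any UTR length do. These matches describe the letters and are not tests of binding.

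The sites below are those of the genes with an 8mer, and the 7mer-m8 sites of Cdk6, the gene with the most matches and with the largest genotype difference after DSS. Each is part of a 3′ UTR, written 5′ to 3′ on the transcript's strand (GRCm38), with the seed match in capitals. The Mcl1 match is at chr3:95661859-95661866 (plus), the Hbp1 8mer at chr12:31927212-31927219 (minus), the Hbp1 7mer-m8 at chr12:31926797-31926803 (minus), and the Ireb2 match at chr9:54909921-54909928 (plus). The Cdk6 matches are at chr5:3529660-3529666, chr5:3529801-3529807 and chr5:3530119-3530125 (plus), named by their first base in the UTR.
Mcl1 8mer: tagagtcttaaccaTGGTGCTAttca
Hbp1 8mer: aaattgatatcctgTGGTGCTAaagt
Hbp1 7mer-m8: gacagtcattgtaaTGGTGCTgtta
Ireb2 8mer: aaataatacacgaaTGGTGCTAttaa
Cdk6 7mer-m8 at base 8869: ctgacctgtcccttTGGTGCTtccc
Cdk6 7mer-m8 at base 9010: caagagataataccTGGTGCTgggc
Cdk6 7mer-m8 at base 9328: aggatgctctgtttTGGTGCTttgg

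**Figure D1:**
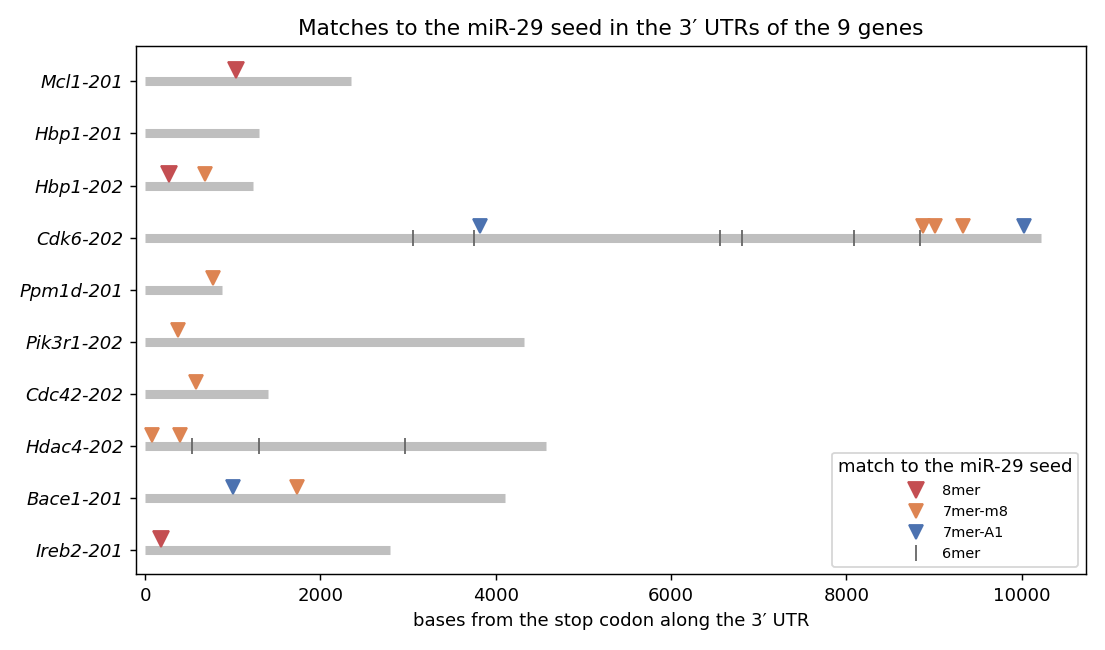
Matches to the miR-29 seed along the 3′ UTRs of the 9 genes, as bases from the stop codon (x axis), with the longest 3′ UTR of each gene and, for Hbp1, also Hbp1-202. Grey bars are UTRs, triangles 8mer and 7mer matches by colour, and ticks 6mer matches (the letters GGTGCT). The 8mers sit in Mcl1, Hbp1-202 and Ireb2, and all 3 7mer-m8 matches of Cdk6 lie beyond base 8869 of a UTR of 10217 bases.

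The libraries held 14231157 to 16100607 reads on genes in KO mice and 17177177 to 18185020 in WT mice without DSS, so that depth moved with genotype there, and 20076719 to 23153149 after DSS. The labels name crypts of the small intestine and the study names colon. Across the mice without DSS the median level of 7 colon epithelium genes was 167 CPM, against 1.97 CPM for 8 small intestine genes. CPM are counts scaled to the size of the library, with TMM factors set within each experiment, so that levels compare mice of 1 experiment. Summed, the lists stood at 1814 to 4960 CPM and at 181 to 365 CPM, so not all small intestine genes were near 0. The libraries are called colon here, and whether they hold crypts or whole colon was not tested. Genes of smooth muscle were at 0.119 CPM in the median and Sox10, of enteric glia, had no read. Lncpint, the noncoding transcript beside the deleted hairpins, ranged from 6 to 23 reads over the WT mice and from 706 to 2889 over the KO mice, with all KO above all WT. After DSS the share of reads on mitochondrial genes was 6.15% to 8.81% in WT mice, and 7.43%, 14.8% and 20.2% in the KO mice. The summed level of 4 neutrophil genes was 45.3 to 96.7 CPM in WT and 90.4 to 236 CPM in KO mice, and that of 7 T cell genes 36.5 to 70.4 CPM and 50.04 to 115 CPM. All 3 tested neutrophil genes and all 7 T cell genes had log2 fold changes above 0, beside 49.0% of all genes tested. Of them 1 and 0 were higher with p under 0.05, beside 3.98% of all genes. Among other lists, 4 of 5 tested macrophage genes, 1 of 3 fibroblast genes, 0 of 2 B cell genes and 0 of 1 endothelial gene lay above 0. The KO mouse with 20.2% mitochondrial reads had the highest neutrophil sum. Fewer cells of a type and less RNA per cell cannot be told apart in such tissue.

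Per kilobase of gene length, Mcl1 and Cdc42 were by far the most abundant of the 9. Without DSS they stood at 99.7 ± 12.4 and 92.2 ± 9.82 CPM per kb (mean ± SD, 8 mice), within each other's spread. Pik3r1 (13.97 ± 1.47) and Ireb2 (12.4 ± 0.598) followed, again with overlapping ranges. Hbp1 (6.39), Cdk6 (5.86), Ppm1d (4.63) and Bace1 (3.87) formed a run in which each overlapped its neighbour, and Hdac4 (2.54 ± 0.243) lay lowest, its range meeting the lower end of Bace1. After DSS, Cdc42 (143 ± 17.8) and Mcl1 (133 ± 22.3) led, and Cdk6, at 1.93 ± 0.419 CPM per kb, was level with Hdac4 (1.92 ± 0.155). All 9 genes passed the filter on low counts in both experiments, with no gene under 156 reads in any mouse.

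**Figure D2:**
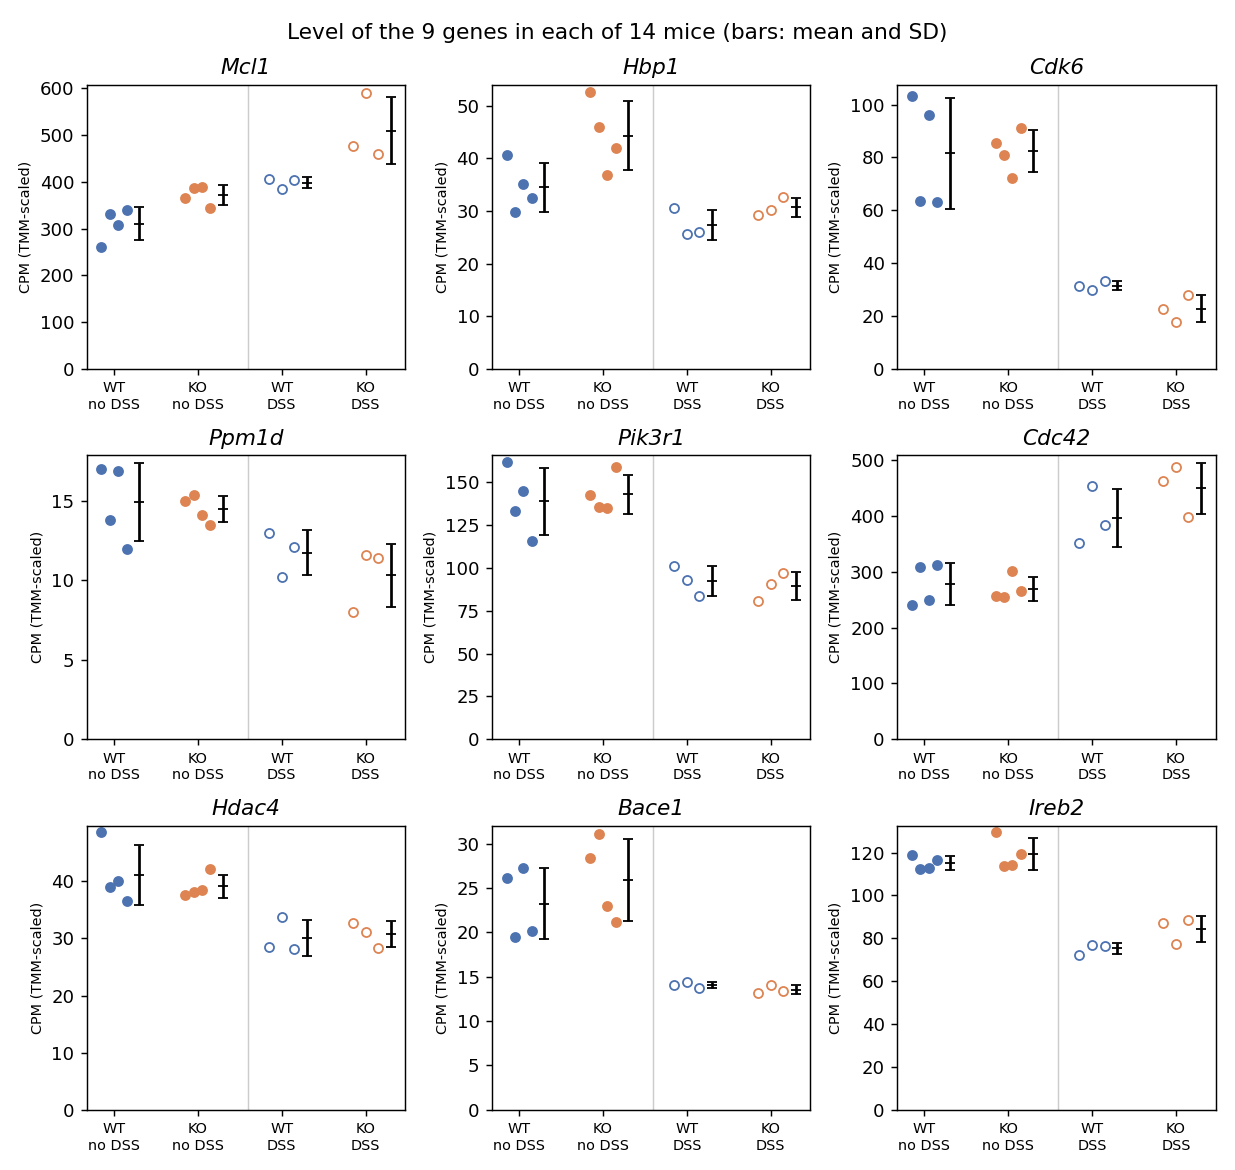
Level of each gene in each mouse, in CPM scaled within each experiment on axes that start at 0, for the 4 groups (blue WT, orange KO, filled without DSS, open after DSS), with mean and SD beside the points. Mcl1 lies higher in every KO mouse than in every WT mouse of the same experiment, and Cdk6 lies lower in every KO mouse after DSS (17.6 to 27.9 CPM) than in the WT mice (29.8 to 33.2 CPM).

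Of the 9 genes, none differed between genotypes at an adjusted p under 0.05 in either experiment (edgeR's quasi-likelihood test, adjusted by Benjamini-Hochberg over all genes), against 0.0194% of the 15441 genes tested without DSS and 0.0134% of the 14908 tested after DSS. DESeq2 also called 0 of the 9. At an unadjusted p under 0.05, the cutoff of the study, 2 genes were higher in KO mice without DSS, Mcl1 and Hbp1, beside 2.09% of all tested genes, and 0 were lower, beside 1.58%. After DSS 1 was higher, Mcl1, beside 3.98%, and 1 was lower, Cdk6, beside 3.25%. DESeq2 gave the same number of genes, 2 in each experiment. The ranges of the genotypes were apart without DSS for 1 gene with KO higher, Mcl1 (1.11% of all genes), and for 0 with KO lower (0.92%). After DSS they were apart for 2 genes with KO higher, Mcl1 and Ireb2 (5.33%), and for 1 with KO lower, Cdk6 (6.28%). The median log2 fold change of the 9 genes was 0.04 without DSS and 0.03 after DSS, beside -0.0016 and -0.0051 over all genes tested. Without DSS 6 of the 9 had a value above 0, beside 49.5% of all genes tested, and after DSS 5 of 9, beside 49.0%.

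**Figure D3:**
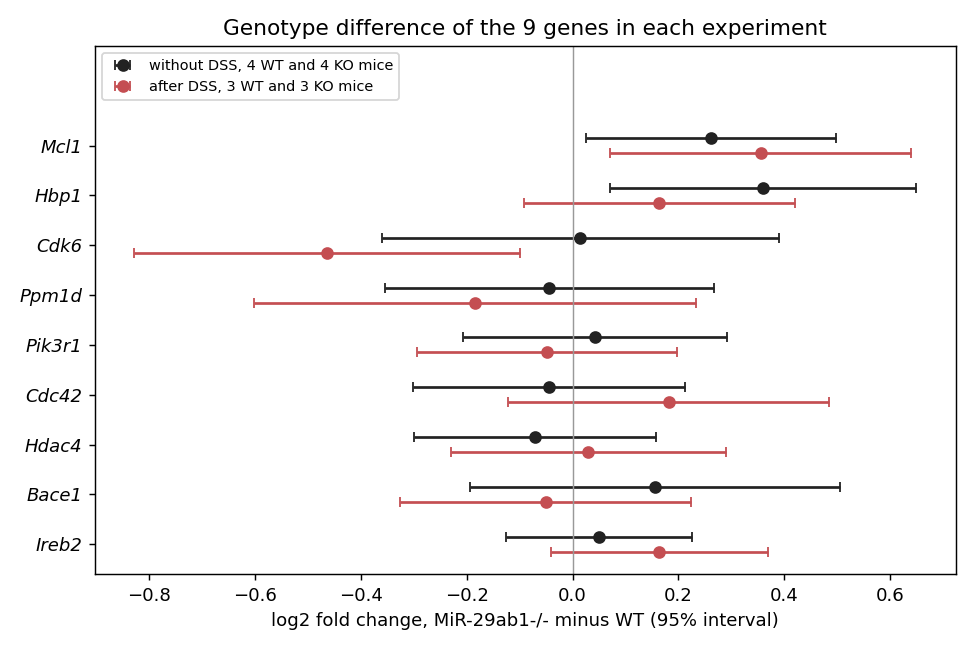
Genotype difference of each gene as log2 fold change, KO minus WT (x axis, points with 95% intervals), without DSS (black) and after DSS (red). The interval lies above 0 for Mcl1 in both experiments and for Hbp1 without DSS, and below 0 for Cdk6 after DSS, before any adjustment for the number of genes.

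Mcl1, which keeps cells alive by holding the death effectors Bak and Bax in check, was higher in KO mice at an unadjusted p under 0.05 in both experiments. Without DSS it stood at 261, 330.5, 308 and 340.3 CPM in the WT mice numbered 1 to 4, and at 366, 387, 388 and 345 CPM in KO mice 1 to 4. The highest WT mouse lay just under the lowest KO mouse, and the ranges did not overlap. The means were 310 ± 35.2 and 371 ± 20.8 CPM (SD), a log2 fold change of 0.26 (SE 0.107, 1.20-fold, 95% interval 1.02 to 1.41). edgeR gave p = 0.0333, adjusted p = 0.9995, and the two-sided exact permutation test p = 0.0286, the smallest that 4 against 4 allows. Leaving out single mice gave 0.19 to 0.31, and p stayed under 0.05 without adjustment in 4 of 8 such fits, not without WT mouse 1, WT mouse 3, KO mouse 2 or KO mouse 3. Without WT mouse 1, the lowest, it was 0.19 (adjusted p = 0.998). That mouse also had the highest mitochondrial share without DSS, 13.9%, and the highest T cell sum of the WT mice, 138 CPM, and the part of either in the result was not tested.

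After DSS, Mcl1 was at 405, 384 and 404 CPM in the WT mice and at 477, 591 and 459 CPM in the KO mice. The WT mice lay close together, and a single KO mouse lay far above the others. The log2 fold change was 0.36 (SE 0.126, 1.28-fold, 95% interval 1.05 to 1.56). edgeR gave p = 0.0196, adjusted p = 0.646, and the exact permutation test p = 0.1, the smallest that 3 against 3 allows. The highest of these mice was the one with 20.2% mitochondrial reads and the highest neutrophil sum, 236 CPM. Without it the difference was 0.24 (adjusted p = 0.9997), and without the lowest WT mouse it was 0.33 (adjusted p = 0.699), neither under 0.05 without adjustment. With a score of lymphocyte genes as a covariate it was 0.35, and the part of the neutrophil and mitochondrial reads was not tested. The difference did not change detectably between the experiments, by 0.10 (95% interval -0.26 to 0.46, adjusted p = 0.987).

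The 11 tested genes of the BCL2 family and its regulators other than Mcl1 held no gene with p under 0.05 without DSS, and their median log2 fold change was 0.03. After DSS 1 was higher and 0 were lower, with a median of 0.04. The higher one was Bak1, the death effector that Mcl1 binds, at 130 to 162 CPM in WT and 174 to 197 CPM in KO mice (log2 fold change 0.38, adjusted p = 0.646). Bcl2l1, the nearest paralogue among the survival proteins, differed by -0.09 (SE 0.122) without DSS and by 0.04 (SE 0.0900) after DSS.

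Hbp1, a repressor of transcription that restrains entry into the cell cycle and Wnt target genes, had the largest log2 fold change of the 9 without DSS. Its levels were 40.6, 29.7, 35.2 and 32.5 CPM in WT mice 1 to 4 and 52.5, 45.9, 36.9 and 42.0 CPM in KO mice 1 to 4. WT mouse 1 lay above KO mouse 3, so the ranges overlapped, while the other WT mice lay below all KO mice. The log2 fold change was 0.36 (SE 0.131, 1.28-fold, 95% interval 1.05 to 1.57, p = 0.0192, adjusted p = 0.9995), and the exact permutation test gave p = 0.0571. Without KO mouse 1 it was 0.27 (adjusted p = 0.999), and without WT mouse 2 it was 0.30 (adjusted p = 0.9999), neither under 0.05 without adjustment. After DSS the WT mice were at 30.6, 25.5 and 26.0 CPM and the KO mice at 29.1, 30.2 and 32.6 CPM. A WT mouse again lay among the KO mice, and the difference was 0.16 (95% interval -0.09 to 0.42, adjusted p = 0.731). The 3′ end of Hbp1 overlaps Cog5 on the other strand, and whether the counting used strand is not given in the sources used here, so reads of both could be mixed. Cog5 itself differed by 0.06 (SE 0.118) and 0.10 (SE 0.142). Of 6 partners and Wnt targets, 0 had p under 0.05 without DSS. After DSS 1 was lower, Sin3a, the corepressor scaffold, at 41.6 to 49.6 CPM in WT and 32.5 to 39.1 CPM in KO mice (log2 fold change -0.29, adjusted p = 0.655).

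Cdk6, the kinase that with D cyclins phosphorylates Rb in the first phase of the cell cycle, differed in the opposite direction after DSS. The WT mice were at 31.2, 29.8 and 33.2 CPM and the KO mice at 22.6, 17.6 and 27.9 CPM, with no overlap. The log2 fold change was -0.46 (SE 0.161, 0.725-fold, 95% interval 0.563 to 0.933, p = 0.0180, adjusted p = 0.646), with an exact permutation p = 0.1, again the smallest possible. The lowest KO mouse was the one with 20.2% mitochondrial reads. Without it the difference was -0.31 (adjusted p = 0.9997), and without the highest WT mouse -0.42 (adjusted p = 0.700), both just above 0.05 without adjustment. Without the KO mouse nearest to WT it was -0.64 (adjusted p = 0.0916), the smallest adjusted p of any of the 9 genes over the alternatives in the within-experiment tests.

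Without DSS, Cdk6 was at 103, 63.6, 96.2 and 63.3 CPM in WT mice 1 to 4 and at 85.3, 81.1, 72.3 and 91.0 CPM in KO mice 1 to 4. The WT mice formed a high pair and a low pair, with all KO mice between them. The difference was 0.01 (95% interval -0.36 to 0.39, adjusted p = 0.9995). Leaving out single mice moved it between -0.09 and 0.16. The change of the genotype difference between experiments was -0.48 (95% interval -1.004 to 0.05, adjusted p = 0.987), so an equal difference in both experiments lies within the interval. It ranged from -0.66 to -0.32 over the 14 fits that leave out 1 mouse. In 3 of them, without WT mouse 1 (-0.60) or WT mouse 3 (-0.56) of the experiment without DSS or without the KO mouse nearest to WT after DSS (-0.66), p was under 0.05 without adjustment, and the smallest adjusted p was 0.463.

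Of 10 other cyclins, kinases and E2F genes of the same phase, 0 had p under 0.05 without DSS. After DSS 0 were higher and 1 was lower, E2f1, an activator of replication genes, at 4.22 to 7.91 CPM in WT and 3.71 to 3.87 CPM in KO mice (log2 fold change -0.64, adjusted p = 0.657). Cdk4, the paralogue of Cdk6 with the same cyclin partners, was at 50.7 to 81.2 CPM and 49.3 to 56.4 CPM after DSS (log2 fold change -0.32, SE 0.160, adjusted p = 0.670), and it differed by -0.01 (SE 0.0812) without DSS.

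Ppm1d, the phosphatase that switches off p53 and the damage kinases, was the gene with the fewest reads. It ranged from 11.98 to 17.0 CPM in WT and from 13.5 to 15.3 CPM in KO mice without DSS, and from 10.2 to 12.9 CPM and 8.03 to 11.6 CPM after DSS. The genotypes overlapped in both experiments. The log2 fold changes were -0.04 (95% interval -0.35 to 0.27) and -0.18 (95% interval -0.60 to 0.23), the widest intervals but those of Cdk6 and Bace1 without DSS and the widest of all after DSS. Of 8 genes of the p53 and damage checkpoint, 0 had p under 0.05 without DSS and 1 after DSS. This was Atm, a damage kinase whose signal Ppm1d ends, at 19.0 to 20.4 CPM in WT and 14.95 to 16.2 CPM in KO mice (log2 fold change -0.33, adjusted p = 0.646).

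Pik3r1 encodes the main regulatory subunit of class I PI3-kinase, which stabilises and holds back the catalytic subunit. It was at 116 to 161 CPM in WT and 135 to 159 CPM in KO mice without DSS, and at 83.3 to 101 CPM and 80.7 to 96.8 CPM after DSS. Its log2 fold changes were 0.04 (95% interval -0.21 to 0.29) and -0.05 (95% interval -0.29 to 0.20). Of 10 other PI3-kinase genes, 1 was lower without DSS and 1 higher after DSS. The lower one was Pik3r2, the paralogous regulatory subunit, at 3.30 to 7.99 CPM in WT and 1.49 to 2.86 CPM in KO mice (log2 fold change -1.45, adjusted p = 0.939). After DSS it stood at 54.4 to 64.0 CPM and 38.7 to 58.9 CPM. It had 22 to 143 reads per mouse in the table without DSS and 751 to 1463 in that after DSS, and whether both tables were counted alike is not given in the sources used here. The higher one was Pik3cd, the catalytic subunit of leukocytes, named after its values were seen, at 9.58 to 13.4 CPM and 12.2 to 30.7 CPM, overlapping (log2 fold change 1.02, adjusted p = 0.646).

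Cdc42, the small GTPase that sets cell polarity and drives filopodia, stood at 240 to 312 CPM in WT and 254 to 302 CPM in KO mice without DSS. After DSS it stood at 352 to 454 CPM and 398 to 487 CPM. The genotypes overlapped in both, with log2 fold changes of -0.04 (95% interval -0.30 to 0.21) and 0.18 (95% interval -0.12 to 0.49). Rac1, a paralogue of Cdc42, differed by -0.08 (SE 0.124) and by 0.21 (SE 0.107).

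Hdac4, a class IIa deacetylase that shuttles out of the nucleus and represses MEF2 factors, was at 36.5 to 48.6 CPM in WT and 37.6 to 42.2 CPM in KO mice without DSS and at 28.1 to 33.7 CPM and 28.3 to 32.7 CPM after DSS. Its log2 fold changes were -0.07 (95% interval -0.30 to 0.16) and 0.03 (95% interval -0.23 to 0.29). Of 8 tested deacetylases, MEF2 factors and corepressors, 0 had p under 0.05 without DSS. The paralogue Hdac5 differed by 0.13 (SE 0.0992) and by -0.50 (SE 0.424).

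Bace1, the beta-secretase that cuts the amyloid precursor protein, was at 19.5 to 27.2 CPM in WT and 21.2 to 31.1 CPM in KO mice without DSS. After DSS it was at 13.7 to 14.4 CPM and 13.2 to 14.1 CPM, the tightest groups of any of the 9 genes relative to their mean. The log2 fold changes were 0.16 (95% interval -0.19 to 0.51) and -0.05 (95% interval -0.33 to 0.22). Bace1 overlaps Rnf214 and a pair of noncoding genes on the other strand, so its reads share the limit given for Hbp1. The counted genes that overlap Cdk6, Hdac4 and Cdc42 had at most 4 reads in any mouse. Of 9 secretase genes and substrates, 0 had p under 0.05 without DSS and 1 was lower after DSS. This was the paralogue Bace2, the other beta-secretase of the family, at 74.1 to 87.9 CPM in WT and 52.1 to 74.8 CPM in KO mice, overlapping (log2 fold change -0.43, adjusted p = 0.646).

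Ireb2 encodes IRP2, which binds iron-responsive elements and so stabilises transferrin receptor mRNA and blocks translation of ferritin. Without DSS it was at 119, 112, 113 and 117 CPM in WT mice 1 to 4 and at 130, 114, 114 and 119 CPM in KO mice 1 to 4. The difference was 0.05 (95% interval -0.13 to 0.23), the narrowest interval of the 9 genes. After DSS the WT mice were at 72.4, 76.9 and 76.4 CPM and the KO mice at 87.0, 77.5 and 88.4 CPM. The ranges were just apart, by less than 1 CPM at the nearest pair, with a log2 fold change of 0.16 (95% interval -0.04 to 0.37, p = 0.105, adjusted p = 0.683) and an exact permutation p = 0.1. Of 9 genes of iron regulation 2 were lower without DSS, both ferritin subunits, named after their values were seen. Fth1 was at 831 to 1203 CPM in WT and 682 to 869 CPM in KO mice (log2 fold change -0.38), and Ftl1 at 313 to 429 CPM and 253 to 330 CPM (log2 fold change -0.31), both with adjusted p = 0.9995 and overlapping ranges. After DSS 1 was higher, Alas2, of heme synthesis in red cells, also named after its values were seen. It was at 0.126 to 0.522 CPM in WT and 0.412 to 3.18 CPM in KO mice, overlapping (log2 fold change 2.45, SE 0.864, adjusted p = 0.646). Its lowest level lay near that of 3 reads, which is 0.130 to 0.211 CPM over the libraries. Aco1, the paralogous iron regulatory protein, differed by 0.08 (SE 0.0832) and by 0.07 (SE 0.0919).

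Over all 81 tested partner genes, 0 were higher and 3 were lower with p under 0.05 without DSS, beside 2.09% and 1.58% of all genes. After DSS 3 were higher and 5 lower, beside 3.98% and 3.25% of all genes. The same shares stand beside the counts of each list above. None of the 81 genes passed an adjusted p under 0.05 by edgeR. Their median log2 fold changes were 0.01 and -0.0040.

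Set against the sites, the 3 genes with an 8mer in any transcript, Mcl1, Hbp1 and Ireb2, had log2 fold changes above 0 in both experiments, with medians of 0.26 without DSS and 0.16 after DSS. Of the 6 genes with 7mers only, 3 were above 0 without DSS and 2 after DSS, with medians of -0.01 and -0.05. This split of the 9 genes is a description and was not tested. Over all tested genes with a 3′ UTR, those with an 8mer in any transcript (427 genes) had a median log2 fold change of 0.05 without DSS, and 66.0% of them lay above 0, against -0.01 and 46.9% of 10241 genes with neither 7mer nor 8mer. At p under 0.05, 7.49% of the former and 1.82% of the latter were higher in KO mice, and 0.703% and 1.75% were lower. After DSS genes with an 8mer had a median of 0.03 and 56.3% lay above 0, against -0.02 and 47.1% of genes with neither. At p under 0.05 the shares higher were then 8.45% of 426 genes and 3.58% of 10250 genes, and the shares lower 1.88% and 3.73%. Mcl1 and, without DSS, Hbp1 are among these higher genes with an 8mer. Genes with a 7mer or 8mer in any transcript, the class of all 9, had medians of 0.03 without DSS and -0.0072 after. Of them 58.9% and 48.3% lay above 0, 3.15% and 5.46% were higher at p under 0.05, and 0.787% and 3.16% lower. The median 3′ UTR without DSS was 2653 bases in genes with an 8mer and 941 in those with neither, and the median level 26.9 and 25.9 CPM. Genes whose longest 3′ UTR has 873 to 10217 bases were also taken alone. Without DSS 59.9% of those with a 7mer or 8mer in it lay above 0, beside 52.6% of all in that range. After DSS these shares were 47.3% and 46.4%. The part of UTR length in the shares of genes with an 8mer was not tested.

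The experiment with DSS was set against that without over all 14 mice, as a mean over genotypes. DSS and experiment cannot be told apart in this comparison, since each was counted in a table of its own, and whether both were counted alike is not given in the sources used here. Levels in this comparison carry 1 set of TMM factors over the 14 mice. On that scale 7 colon epithelium genes summed to 1663 to 4628 CPM without DSS and 10957 to 16190 CPM after, and 4 neutrophil genes to 6.13 to 22.8 CPM and 51.1 to 265 CPM, and their part in the changes was not tested. At an adjusted p under 0.05, 2 of the 9 genes were higher in the experiment with DSS, beside 28.7% of the 16370 genes tested, and 4 were lower, beside 29.5%. Cdc42 rose most, by 0.92 on the log2 scale (1.90-fold, 95% interval 1.66 to 2.18, adjusted p = 1.11e-06), and Mcl1 rose by 0.71 (1.63-fold, 95% interval 1.44 to 1.85, adjusted p = 5.78e-06). Cdk6 fell by 1.31 (0.402-fold, 95% interval 0.333 to 0.486, adjusted p = 9.15e-07), and on the scale over 14 mice it was at 58.9 to 92.6 CPM without DSS and 19.8 to 37.3 CPM after, with no overlap.

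Bace1 (log2 fold change -0.53, adjusted p = 0.000475), Pik3r1 (-0.33, adjusted p = 0.00205) and Ireb2 (-0.26, adjusted p = 0.00124) also fell. Hdac4 (-0.10), Hbp1 (-0.13) and Ppm1d (-0.11) did not pass the test, and their ranges overlapped on the scale over 14 mice, as did those of Pik3r1. With library size alone and no TMM factors, an alternative chosen after seeing the data, the median of all genes was -0.33 and 23.4% of the called genes were higher, against 49.3% with TMM. All 9 genes were then called, 2 higher and 7 lower, with Hdac4 at -0.40 (adjusted p = 0.000898), Hbp1 at -0.43 (adjusted p = 0.00195) and Ppm1d at -0.42 (adjusted p = 0.00725). With TMM the 9 genes had a median of -0.13 beside -0.03 over all genes. With all mice, the genotype difference itself differed between experiments for 0 of the 9 genes by edgeR at an adjusted p under 0.05 and for 0 at an unadjusted p under 0.05, with DESeq2 giving 0 as well, beside 0% and 4.03% of all genes tested.

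**Figure D4:**
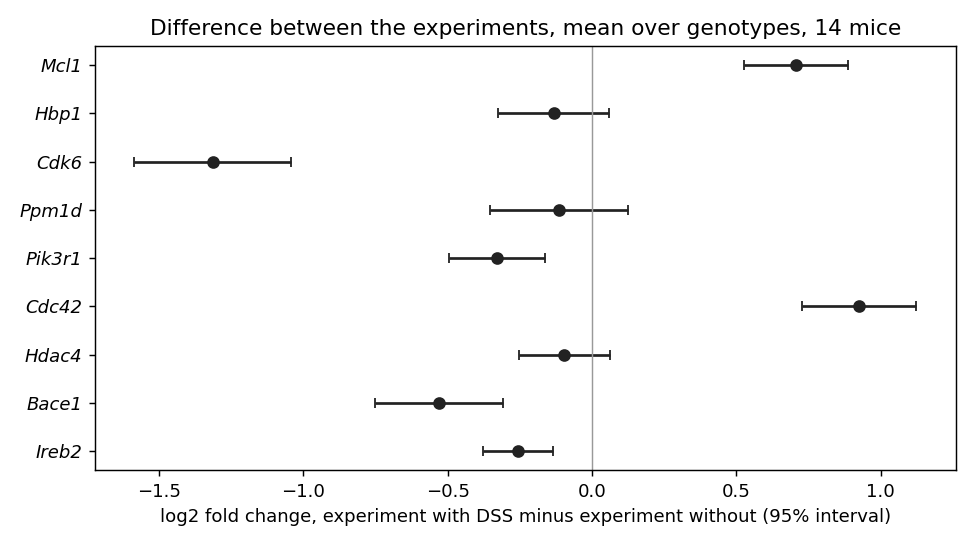
Difference between the experiments for each gene as log2 fold change, DSS minus no DSS, mean over genotypes (x axis, points with 95% intervals, 14 mice). Cdc42 and Mcl1 lie above 0, Cdk6 lies farthest below 0, and the intervals of Hbp1, Ppm1d and Hdac4 cross 0, with TMM factors over the 14 mice; with library size alone these 3 lie below 0.

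Within groups, the deviations of each mouse from its group mean in log2 CPM were compared over the 14 mice, which share depth, scaling and tissue make-up within a library, so these correlations describe the libraries. Mcl1 and Cdk6 deviated in opposite directions (Pearson's r -0.863), as did Cdk6 and Cdc42 (-0.842), while Bace1 and Hbp1 (0.661) deviated together. Among 14244 genes, Vti1b (0.918) and Acad11 (0.906) were most like Mcl1, Slc7a8 (0.958) and Zranb3 (0.940) most like Cdk6, and Pck1 (0.941) and Itpr1 (0.936) most like Hbp1. Vdac2 (0.966) and Actr2 (0.959) were most like Cdc42, Mrtfb (0.930) and Rapgef1 (0.926) most like Pik3r1, and Thsd4 (0.925) and Mcam (0.911) most like Hdac4. For Bace1 these were Rab3gap2 (0.919) and Sync (0.909), for Ppm1d D130017N08Rik (0.930) and Tacc2 (0.925), and for Ireb2 C030006K11Rik (0.905) and Ccrl2 (0.880).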

How the data were processed

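RNA of mouse colon was extracted with TRIzol, and libraries were made with a directional kit (NEBNext Ultra Directional). The authors deposited raw counts, the number of reads on each gene, in separate tables for the experiments. HISAT2 and DESeq2 are named in the submitters' processing notes, and the counting tool, its strand setting and the genome build are not given in the sources used here. Gene positions matched GENCODE vM21 (GRCm38) for all 9 genes, with the same length in both tables. The deposited FPKM columns (14) and the fold changes and p-values of the authors' own comparison were not used. Columns after DSS carry group names but no number that matches a sample title, so those mice have no number here.

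Counts were filtered by filterByExpr (minimum count 10, total 15), given TMM factors, and the genotypes were tested within an experiment by edgeR 4.0.16 (glmQLFit, glmQLFTest, robust) in R 4.3.3, two-sided, with Benjamini-Hochberg adjustment over all tested genes. A call is an adjusted p under 0.05. Each of the 9 genes was tested alone by exact permutation, two-sided, of log2 CPM (prior count 2). Differences between experiments were fitted over all 14 mice on the 54378 genes common to both tables, with TMM factors over the 14 mice. The code was tested on simulated data.

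Depth was 14231157 to 23153149 reads, where 3 reads are 0.130 to 0.211 CPM, and this covers counting error only. No other annotated gene shared 100 or more stretches of 50 bases with any of the 9. The 9 genes and the lists were chosen with earlier results of these data known. All 9 genes are named with values, whatever their p. Partners are named with p under 0.05 and ranges apart, or as the nearest paralogue, and for likeness the 2 most correlated genes. Alternatives were DESeq2 1.42.0, RLE size factors, other filters, protein-coding genes only, a lymphocyte covariate, 1 model of all 14 mice, a replicate block, each mouse left out, for the difference between experiments library size alone (added after seeing the data), and, for sites, all transcripts or 6mers. Results for some partner genes are not reported here.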

Additional observations from a re-analysis of the deposited data

How the results depend on the processing

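No alternative brought any of the 9 genes under an adjusted p of 0.05 for genotype, and the differences of Mcl1, Hbp1, Bace1 and Ireb2 without DSS and of Mcl1, Cdk6, Cdc42, Hbp1, Ireb2, Bace1 and Ppm1d after DSS kept their direction in every alternative. All 18 reversals among 594 values came from leaving out 1 mouse. The ranges were, without DSS, -0.090 to 0.16 for Cdk6, -0.036 to 0.13 for Pik3r1, -0.12 to 0.028 for Hdac4, -0.14 to 0.034 for Ppm1d and -0.10 to 0.016 for Cdc42. After DSS they were -0.12 to 0.021 for Pik3r1 and -0.017 to 0.11 for Hdac4, and for the change between experiments -0.019 to 0.18 for Mcl1 and -0.22 to 0.0077 for Ppm1d. Leaving out 1 mouse left 1 to 2 of the 9 genes higher at p under 0.05 without DSS, 0 to 1 higher and 0 to 1 lower after DSS, and a median of the 9 genes after DSS of -0.015 to 0.11. Over all genes after DSS it gave 268 to 1288 higher and 215 to 1242 lower genes at p under 0.05 and 0 to 93 at adjusted p under 0.05, and 3 to 5 of the latter without DSS. With no filter, 703 genes were higher and 396 lower without DSS and 1037 and 782 after DSS at p under 0.05, with 11 and 46 at adjusted p under 0.05. DESeq2 gave 24 and 59 at adjusted p under 0.05, and a minimum of 10 reads in every mouse or protein-coding genes only gave 0 in both experiments. The cause was not tested, except that a filter changes the genes tested. With the replicate block without DSS, 1 of the 9 genes, Hbp1, was higher at p under 0.05 and Mcl1 no longer was (log2 fold change 0.27, adjusted p = 0.9997). The numbers mark different animals, and the correlations of same-numbered mice were -0.0303, 0.149, -0.194 and -0.127. All pairs of a WT and a KO mouse spanned -0.28 to 0.26, so these values show no pairing by number. Whether same-numbered mice shared a litter or preparation was not tested. No paired analysis was possible after DSS because the columns carry no label number. With 6mers counted, Cdk6 had 11 matches and Hdac4 5. At 8 and 6 mice, an interval that holds 0 does not exclude a difference of any size within it.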
